A study of Mus musculus with 48 samples.

Results

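The Wnt ligands, their Frizzled and Lrp receptors, the secreted antagonists of the Frzb, Sfrp, Dkk and Wif1 families and the R-spondins Rspo2, Rspo3 and Rspo4 are described here. The members were taken by gene symbol, with Wnt4 left out, and not by any measured value. They were 43 of the 22173 genes in the count table of gonadal somatic cells (GSCs): 18 ligands, 12 receptors, 10 antagonists and 3 R-spondins. The FPKM table of the induced cells held 29 of them among 13682 genes (10 ligands, 11 receptors, 7 antagonists and 1 R-spondin). The genes of the single-cell sample, 32285 in all, held all 43. The 14 members outside the FPKM table were Dkk4, Fzd10, Rspo3, Rspo4, Sfrp5, Wif1, Wnt1, Wnt10a, Wnt3, Wnt3a, Wnt7a, Wnt8a, Wnt8b and Wnt9b, and they were not analysed in the induced bulk cultures.

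The study compared GSCs of C57BL/6 mice with cells induced from embryonic stem cells (ESCs). GSCs of E12.5, E13.5 and E16.5 female gonads and of ovaries of 6-week-old females (P6w) gave 2 RNA-seq libraries per stage. Germ cells were held back on a magnetic column through SSEA1, as the methods give it for E12.5, so that the flow-through holds every other cell of the gonad. E12.5_GC is a separate group of 3 libraries of E12.5 female gonadal somatic cells, measured in FPKM beside GSC-like cells (GSCLCs) induced for 4, 6, 8 and 10 days (V580_D4 to V580_D10, 3 libraries each). V580 is vitamin C (Vc, 50 µg/mL) with AM580, an agonist of retinoic acid receptor alpha, both given to female ESCs in differentiation medium. ESCs without either molecule (Con), with Vc, with AM580 or with V580 were sampled after 24 h and 48 h (2 libraries per group). V580_D6 cells gave 1 single-cell (10x) sample. The paper states that this sequencing was done in triplicate, and whether the sample pools those runs is not known here. No source used here says whether libraries of a group came from separate animals or cultures, so that p values measure only the spread between these libraries.

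Wnt proteins are lipid-modified by Porcn, carried to the cell surface by Wls and bound there by a Frizzled receptor with Lrp5 or Lrp6. Signalling through both receptors keeps beta-catenin from being degraded, and beta-catenin then acts with TCF/LEF factors on genes such as Axin2, Lef1 and Lgr5. Sfrp proteins, Frzb and Wif1 bind the ligands, Dkk1 binds Lrp5 and Lrp6, and R-spondins raise the amount of receptor at the surface. Wnt5a and Wnt11 are best known for signalling without beta-catenin. In the female gonad, Rspo1 and Wnt4 act through beta-catenin in the supporting cells and oppose the testis pathway.

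The stage libraries held between 12694769 and 22259044 counts. Those of the days and E12.5_GC held between 19.6 and 28.3 M fragments, and those of the treatments between 16.4 and 22.3 M, as recovered from the FPKM values. By the labels, both E12.5 and both E13.5 libraries and E16.5 replicate 1 shared a sequencing lane, and E16.5 replicate 2 and both P6w libraries another. Both E12.5 libraries held transcripts of the Y-linked gene Ddx3y, at least 97 counts in each against 0 to 4 in each of the other 6, although they are labelled female. Xist, the RNA of the inactive X chromosome, had 7365 and 6386 counts in the same libraries, 986 and 786 (E13.5), 8880 and 2511 (E16.5) and 945 and 792 (P6w). The summed level of Sertoli markers was 87.4 to 92.4 CPM (E12.5) 36.9 to 37.5 (E13.5), 143 to 153 (E16.5) and 98.3 to 187 (P6w). Since both E12.5 libraries held Y-linked transcripts, comparisons with E12.5 cannot be given without them, and P6w is therefore also compared with E16.5. Erythroid markers summed to between 12700 and 14000 CPM (E12.5), 23600 and 24900 (E13.5), 3220 and 5250 (E16.5) and 108 and 124 (P6w). Germ cell markers summed to at most 7.26 CPM (E12.5), 22.6 to 25.8 (E13.5), 120 to 154 (E16.5) and at most 7.82 (P6w), and their part in the stage comparisons was not tested. The 2 E16.5 libraries, from different lanes, differed more from each other than the pair of any other stage (chi-square per degree of freedom over genes 40.4 against 6.28 to 7.22). The E12.5_GC libraries differed more from each other than replicates of a V580 day did (47.8 to 87.1 against 1.69 to 9.05). In bulk libraries, fewer cells of a type and less RNA per cell cannot be told apart.

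Sequences before the start of Dkk1, Fzd7 and Wnt9a are shown because AM580 changed these 3 members within 48 h. RefSeq promoters of GRCm38.p6 were used, from 250 bases before the gene start to the base before it, and each is read 5' to 3' along its gene. Searched on both strands were AGGTCA and GGTTCA, the single sites that retinoic acid receptors bind in pairs. The pairs searched were such sites in the same direction with 5 or 2 bases between them (DR5 and DR2). The TCF/LEF core was searched as CTTTGAA and CTTTGAT. It was also searched as CTTTGTT and CTTTGTA. Capitals mark a TCF/LEF core. Of Dkk1 only the 26 bases around its cores are shown, from the minus strand at chr19:30549588-30549613. Fzd7 is shown from the plus strand at chr1:59481897-59482146 and Wnt9a from the plus strand at chr11:59306680-59306929.
Dkk1: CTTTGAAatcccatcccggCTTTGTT
Fzd7: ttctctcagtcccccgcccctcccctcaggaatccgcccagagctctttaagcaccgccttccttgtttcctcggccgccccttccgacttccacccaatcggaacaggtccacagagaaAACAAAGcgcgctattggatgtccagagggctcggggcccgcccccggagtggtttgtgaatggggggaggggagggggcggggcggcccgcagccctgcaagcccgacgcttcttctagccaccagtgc
Wnt9a: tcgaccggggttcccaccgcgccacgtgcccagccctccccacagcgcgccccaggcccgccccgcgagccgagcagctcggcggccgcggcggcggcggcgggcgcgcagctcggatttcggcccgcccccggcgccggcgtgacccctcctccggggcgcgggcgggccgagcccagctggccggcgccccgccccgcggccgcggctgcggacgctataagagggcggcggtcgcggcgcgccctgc
The cores of Dkk1 began 117 and 98 bases before its RefSeq start, and that of Fzd7, CTTTGTT on the minus strand, lay 130 bases before it. The GENCODE model of Dkk1 starts further upstream, at base 30549665, so that 169 bases of this window are annotated there as untranslated exon and both cores lie inside the gene. The Wnt9a window, of 84.4% G and C, held none of the motifs, and no AGGTCA and no GGTTCA was found, alone or as DR5 or DR2, in the windows of Dkk1, Fzd7 or Wnt9a. Over all 32817 promoters, 14.8% held a TCF/LEF core, 14% AGGTCA, 8.84% GGTTCA, 0.0183% a DR5 and 0.0853% a DR2. The table held promoters of 27 of the 43 members, 30 in all, and a core stood in 4 of these (Dkk1, Fzd7, Wnt11 and Wnt5b). AGGTCA stood in that of Wnt16, GGTTCA in those of Dkk2 and Wnt5b, and DR5 and DR2 in none of the 30. The promoters of Fzd8 and Sfrp1, which also changed, are not shown. A match or its absence in such a window is a description of letters and not of binding.

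The first question was how these genes change as GSCs develop. Embryonic GSCs held high levels of Wnt6 and Sfrp1, and P6w GSCs held little of any embryonic ligand and much Sfrp4. In CPM, counts scaled to a common library size, per kilobase of transcript (CPM per kb), the 18 ligands, which leave out Wnt4, summed to 61.6 ± 4.49 in GSCs of E12.5 (SD, n = 2), 108 ± 1.77 (E13.5), 62.1 ± 4.47 (E16.5) and 11.6 ± 1.3 (P6w). The 10 antagonists summed to 64.0 ± 4.71, 61.3 ± 2.78, 154 ± 28.5 and 120 ± 0.885, and the 12 receptors to 29.6 ± 0.66, 18.5 ± 2.01, 24.4 ± 1.61 and 20.8 ± 1.42. A few genes carried these sums. The ligand sum was mostly Wnt6 (40.7, 84.4 and 42.5 in the order of the embryonic stages), and the antagonist sum was mostly Sfrp1 until E16.5 (54.0, 53.7 and 138) and Sfrp4 at P6w (99.9).

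**Figure D1:**
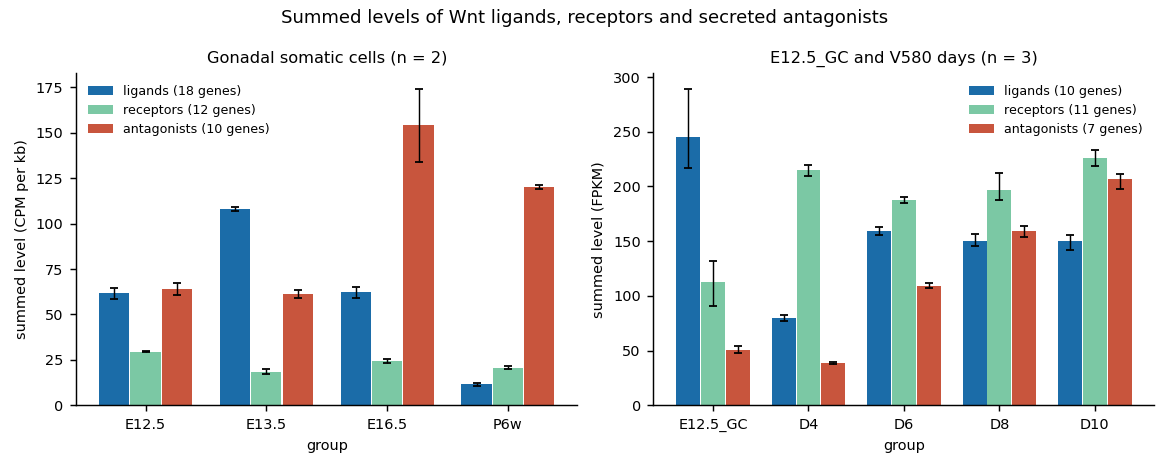
Summed levels of ligands (without Wnt4), receptors and antagonists, in CPM per kb for the 4 GSC stages (left, 2 libraries each) and in FPKM for E12.5_GC and the V580 days (right, 3 libraries each). Bars are means and error bars run from the lowest to the highest library. The ligand sum was 11.6 at P6w beside an antagonist sum of 120, and in V580 cells the antagonist sum went from 38.9 on D4 to 207 on D10.

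Of the 43 members, 35 passed the filter on low counts, which a gene can pass through 1 stage alone, and 8 were not tested (Dkk4, Rspo4, Wnt1, Wnt3, Wnt7a, Wnt8a, Wnt8b and Wnt9b). Genes were called at a Benjamini-Hochberg adjusted p below 0.05 by edgeR's quasi-likelihood test, without a limit on the fold. At E13.5 against E12.5, 15 of the 35 members were called (42.9%, beside 45.9% of all genes tested), 4 higher and 11 lower (all genes 23.8% and 22.1%). At E16.5 against E12.5, 12 were called (34.3% beside 37.6%), 6 in each direction (all genes 20.5% higher and 17.1% lower), and 13 without E16.5 replicate 1 or 12 without replicate 2. At P6w against E12.5, 23 were called (65.7% beside 52.9%), 7 higher and 16 lower (all genes 25.4% and 27.5%). At P6w against E16.5 it was 20 (57.1% beside 56.1%), 5 higher and 15 lower (all genes 26.3% and 29.8%), and 18 or 17 without E16.5 replicate 1 or 2. The median log2 fold change at P6w against E12.5 was -0.75 over the 35 members and -0.041 over all genes. The first 3 comparisons share the E12.5 libraries. Without E12.5 replicate 2, the count at E13.5 was 9 in place of 15.

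Among the ligands, Wnt6, known from several embryonic epithelia, stood at 96.7 and 81.9 CPM (E12.5), 191 and 179 (E13.5), 87.5 and 98.8 (E16.5) and 9.97 and 6.91 (P6w). It was the most abundant of the 18 ligands, which leave out Wnt4, per length at each embryonic stage, with its highest values at E13.5, and no P6w library reached the embryonic range. The log2 fold change was 1.05 ± 0.14 (SE) at E13.5 (adjusted p = 4.85e-05) and -3.40 ± 0.17 at P6w against E12.5 (adjusted p = 3.85e-10). Epithelial markers summed to 334 to 352 CPM (E12.5), 660 to 664 (E13.5), 828 to 1030 (E16.5) and 137 to 162 (P6w). Liver markers summed to at most 3.34 CPM (E12.5), 153 to 157 (E13.5), at most 3.81 (E16.5) and 123 to 133 (P6w). All 4 liver markers had a mean of at least 1 CPM at E13.5. At P6w only 1 of the 4 did, and Alb was at 0 in both libraries. The part of epithelial or liver markers in the changes of Wnt6 was not tested. Wnt5b, a close relative of Wnt5a, was at 28.4 and 28.3 CPM (E12.5), 34.2 and 40.7 (E13.5), 16.8 and 17.6 (E16.5) and 6.21 and 6.08 (P6w). Its rise at E13.5 was small (0.40 ± 0.16, adjusted p = 0.0468) and missed the threshold without E12.5 replicate 1 (0.40), E12.5 replicate 2 (0.39) or E13.5 replicate 2 (0.29), with DESeq2 (0.40), without the filter on low counts (0.38) and, with the trend on transcript length removed, at 0.09. Its falls at E16.5 (-0.73 ± 0.16) and at P6w (-2.21 ± 0.18) against E12.5 passed. Wnt2b, a ligand that can act through beta-catenin, went from 8.71 and 10.3 CPM (E12.5) to a mean of 13.8 ± 0.357 (SD, E13.5), 14.4 and 14.6 (E16.5) and 2.12 and 2.08 (P6w). Its rise at E13.5 (0.53 ± 0.20, adjusted p = 0.036) missed the threshold when either library of E12.5 or E13.5 was left out (0.41 to 0.65), with DESeq2 (0.54) and without the filter (0.51).

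Wnt11 and Wnt9a were present through the embryonic stages and nearly absent at P6w. Wnt11, a ligand of ureteric bud tips and of cell movements, stood at 3.61 CPM in both E12.5 libraries, 3.66 and 4.96 (E13.5), 4.98 and 6.85 (E16.5) and 0.327 and 0 (P6w). It fell by 4.40 ± 0.62 on the log2 scale at P6w against E12.5 (adjusted p = 2.81e-05). Wnt9a, known for its part in joint formation, was at 6.02 and 6.13 CPM (E12.5), 5.94 and 6.5 (E13.5), 5.28 and 9.36 (E16.5) and 0.654 and 0.999 (P6w). It was 3.13 ± 0.39 lower at P6w than at E16.5 on the log2 scale (log2 fold change -3.13, adjusted p = 6.52e-06). Wnt5a also fell at P6w, and 2 ligands rose against E12.5, Wnt2 and Wnt10b.

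Wnt10b, known as a brake on fat cell formation, went the opposite way from the embryonic ligands. Its counts were 0 and 1 (E12.5), 0 and 1 (E13.5), 12 and 4 (E16.5) and 145 and 107 (P6w), which is 11.8 and 8.91 CPM (P6w). With 1 count at E12.5 in all, the ratio of P6w to E12.5 was 435 with an exact 95% interval of 77.3 to 17200, which like all such intervals covers counting error only. Against E16.5 the log2 fold change was 4.68 ± 0.50 (adjusted p = 1.43e-06). Wnt10b was at 3.05 CPM per kb at P6w, beside 3.85 for Wnt6. Wnt8a had 0 counts in all 8 libraries and Wnt9b 2 counts in all.

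**Figure D2:**
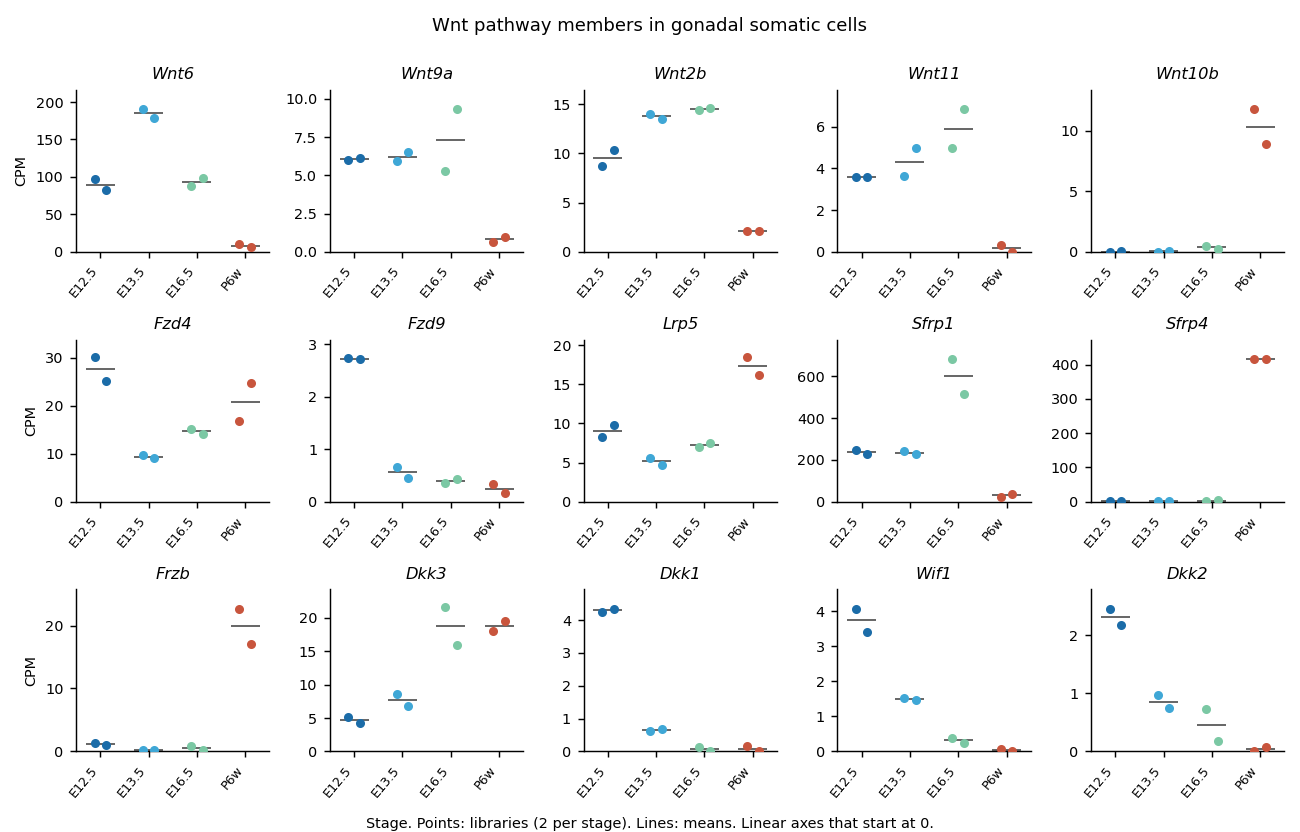
CPM of 15 members in GSCs by stage, with a point per library (2 per stage), a line at the mean and linear axes that start at 0. Wnt6 was highest at E13.5 (191 and 179), Sfrp4 (417 in both libraries) and Wnt10b (11.8 and 8.91) rose at P6w, and Dkk1, Dkk2 and Wif1 fell to at most 0.163 CPM at P6w.

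The antagonists split into members of early GSCs and members of later GSCs. Dkk1, the best known blocker of Lrp5 and Lrp6, stood at 4.26 and 4.35 CPM (E12.5), 0.61 and 0.684 (E13.5), 0.13 and 0 (E16.5) and 0.163 and 0 (P6w). Its counts summed to 180 at E12.5 and to 3 at E16.5, a ratio of 56.6 (19.1 to 277), and the log2 fold change at E13.5 was -2.72 ± 0.55 (adjusted p = 0.000975). Wif1, which binds Wnt ligands outside the cell, was at 4.08 and 3.41 CPM (E12.5), 1.52 and 1.48 (E13.5), 0.39 and 0.245 (E16.5) and 0.0817 and 0 (P6w). It fell by 3.50 ± 0.52 on the log2 scale at E16.5 (adjusted p = 0.000112), and its 157 counts at E12.5 against 1 at P6w gave a ratio of 91.0 (16.1 to 3620). Dkk2, which binds Lrp5 and Lrp6 as well, had 97 counts at E12.5 and 1 at P6w, a ratio of 56.2 (9.86 to 2240). Dkk2 was at 2.46 and 2.17 CPM (E12.5), 0.965 and 0.741 (E13.5) and 0.736 and 0.184 (E16.5), a log2 fold change at E16.5 of -2.24 ± 0.62 (adjusted p = 0.0104). That fall missed the threshold without E12.5 replicate 1 (-2.16), without E16.5 replicate 2 (-1.65) and with the sequencing lane as a term (-1.64). The falls of Dkk1 (-1.30) and Dkk2 (-3.63) at P6w against E12.5 also missed it with the lane as a term.

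Sfrp1 and Sfrp2, which bind Wnts through a Frizzled-like domain, were highest at E16.5. Sfrp1 was at 246 and 226 CPM (E12.5), 243 and 227 (E13.5), 686 and 518 (E16.5) and 23.7 and 35.0 (P6w). It rose by 1.35 ± 0.16 on the log2 scale at E16.5 against E12.5 (adjusted p = 1.54e-05), and fell by 4.36 ± 0.19 from E16.5 to P6w (adjusted p = 6e-11). Sfrp2 was at 8.76 and 5.98 CPM (E12.5), 6.96 and 7.41 (E13.5), 19.2 and 19.7 (E16.5) and 2.7 and 2.16 (P6w). It rose by 1.40 ± 0.22 at E16.5 against E12.5 (adjusted p = 0.000194), and the marker sum of interstitial cells went from 850 to 909 CPM at E12.5 to between 2690 and 2910 at E16.5 and between 377 and 410 at P6w. The part of that sum in the result was not tested. Reads of Sfrp2 cannot be told apart from those of Gm26771, which overlaps 16.1% of its exon bases on the other strand, since the libraries do not mark the strand. The same limit holds in the bulk libraries for Fzd5 (17.8% of its exon bases, Gm38058), Rspo3 (13.1%, Gm48159), Wnt11 (8.8%), Wnt5a (4.6%) and Fzd6 (3.2%). Sfrp5 had 3 counts at E12.5 and 46 at E16.5 (1.17 and 1.16 CPM), a ratio of 16.3 (5.23 to 81.7).

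Sfrp4 and Frzb were highest at P6w, and Dkk3 was high at both E16.5 and P6w. Sfrp4, an antagonist known from maturing follicles and corpora lutea, stood between 0.856 and 3.49 CPM in the 6 embryonic libraries and at 417 in both P6w libraries. Its log2 fold change was 7.11 ± 0.24 against E12.5 (adjusted p = 3.76e-12) and 7.07 ± 0.24 against E16.5 (adjusted p = 4.82e-12). Adult granulosa markers summed to 122 to 125 CPM (E12.5), 240 to 256 (E13.5), 130 to 237 (E16.5) and 35700 to 35900 (P6w), and their part in the P6w changes was not tested. Per length, Sfrp4 (99.9 CPM per kb) was followed at P6w by Sfrp1 (6.72), Frzb (6.16) and Dkk3 (5.61). Frzb, first known from cartilage, was at 1.34 and 0.988 CPM (E12.5), 0.152 and 0.285 (E13.5), 0.909 and 0.245 (E16.5) and 22.7 and 17.1 (P6w). It fell by 2.40 ± 0.59 at E13.5 (adjusted p = 0.00408) and rose by 4.08 ± 0.38 at P6w against E12.5 (adjusted p = 3.07e-07). Dkk3, a divergent family member that does not block Lrp5 and Lrp6 as Dkk1 does, was at 5.19 and 4.2 CPM (E12.5), 8.59 and 6.79 (E13.5), 21.6 and 15.9 (E16.5) and 18.1 and 19.6 (P6w). Its log2 fold change against E12.5 was 2.00 at both E16.5 (± 0.22) and P6w (± 0.23). Its rise at E13.5 (0.71 ± 0.23, adjusted p = 0.0201) missed the threshold without E12.5 replicate 2 (0.56) or E13.5 replicate 1 (0.54) and with the length trend removed (0.55).

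No receptor rose at E13.5 or E16.5 against E12.5, and 6 of the 12 fell at E13.5 (Fzd3, Fzd4, Fzd8, Fzd9, Lrp5 and Lrp6), where 22.1% of all genes fell. Their exon lengths were 12804, 6720, 5974, 2293, 9738 and 13672 bases in that order, beside 2192 for Wnt6, which rose. With the length trend removed, Fzd4 and Fzd9 kept their calls at E13.5, and Fzd3, Fzd8, Lrp5 and Lrp6 are not given for that setting. Fzd4, a receptor of Wnts and of Norrin, known from blood vessels, was at 30.2 and 25.2 CPM (E12.5), 9.7 and 9.01 (E13.5), 15.2 and 14.1 (E16.5) and 16.7 and 24.8 (P6w). It fell by 1.56 ± 0.20 on the log2 scale at E13.5 (adjusted p = 3.02e-05), and the endothelial marker sum went from 168 to 173 CPM at E12.5 to between 68.5 and 71.4 at E13.5. The part of that sum in the fall was not tested. Fzd9 was at 2.73 and 2.72 CPM (E12.5), 0.66 and 0.456 (E13.5), 0.346 and 0.428 (E16.5) and 0.327 and 0.166 (P6w), below E12.5 in each of the 6 later libraries (-2.27 ± 0.52 at E13.5, adjusted p = 0.00256). Lrp5, the co-receptor known for setting bone mass, was at 8.29 and 9.78 CPM (E12.5), 5.64 and 4.68 (E13.5), 6.93 and 7.53 (E16.5) and 18.5 and 16.2 (P6w). It rose by 1.27 ± 0.21 at P6w against E16.5 (adjusted p = 0.000133). Fzd1, Fzd2, Fzd9 and Fzd10 fell at P6w against E12.5. Of the R-spondins, Rspo3 and Rspo2 were tested, and Rspo3 fell at P6w (-2.85 ± 0.61 against E12.5, adjusted p = 0.00119).

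The rest of the pathway was read from 47 genes, of secretion, receptor turnover, relay and response, all of which were tested. At P6w against E12.5, 9 rose and 25 fell, and of the 13 feedback targets 1 rose and 11 fell (all genes 25.4% higher and 27.5% lower). Axin2, a general target of beta-catenin, was at 57.9 and 58.0 CPM at E12.5 and 5.96 and 7.49 at P6w (-3.11), Lef1 at 36.5 and 39.5 and at 0.327 and 0.916 (-5.93), and Lgr5, a receptor of R-spondins, at means of 56.3 ± 1.31 (SD) and 11.8 ± 2.31 (-2.25). Porcn rose (1.84) and Wls fell (-0.87). At E13.5 against E12.5, 3 of the 47 rose and 14 fell (all genes 23.8% and 22.1%), and at E16.5 14 rose and 7 fell (all genes 20.5% and 17.1%). The genes left out of the members followed the fall at P6w, with Wnt4 at 307 and 275 CPM at E12.5 and 28.3 and 28.5 at P6w (-3.36) and Rspo1 at 61.8 and 59.6 and at 6.13 and 4.16 (-3.56).

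The next question was how far GSCLCs hold the ligands and receptors of E12.5 gonadal somatic cells. V580 cells held less Wnt6 than E12.5_GC on every day, while Fzd6, Fzd7, Wnt7b and Dkk3 were higher on every day. The summed level of the antagonists was higher on each later day. In FPKM, the 7 antagonists summed to 50.3 ± 3.72 (SD, n = 3) in E12.5_GC and to 38.9 ± 0.734, 109 ± 2.81, 159 ± 5.37 and 207 ± 7.05 on D4, D6, D8 and D10. The 10 ligands, which leave out Wnt4, summed to 245 ± 38.6 in E12.5_GC and to 79.6 ± 2.49, 159 ± 3.63, 150 ± 6.11 and 150 ± 7.24, and the 11 receptors to 113 ± 21.1 and to 215 ± 5.08, 188 ± 2.22, 197 ± 13.7 and 226 ± 7.17. Wnt4 itself was at 82.7, 124 and 94.9 FPKM in E12.5_GC. It was at 3.25 to 3.54 on D4, 34.1 to 37.0 on D6, 58.9 to 64.9 on D8 and 72.2 to 83.7 on D10, so that a sum with Wnt4 would differ.

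Of the 29 members, 24 passed the filter on low values, which a gene can pass through 1 group alone. Genes were called by limma at an adjusted p below 0.05 with at least a 2-fold change on the scale of log2(FPKM + 1), which understates the change of low genes. Against E12.5_GC, 12 of the 24 were called on D4 (50%, beside 20.4% of all genes tested), 6 in each direction (all genes 9.13% higher and 11.3% lower). On D6 it was 13 (54.2% beside 15.2%), 10 higher and 3 lower (all genes 7.06% and 8.11%). On D8 it was 11 (45.8% beside 13.0%), 10 higher and 1 lower (all genes 6.9% and 6.07%), and on D10 15 (62.5% beside 16.4%), 13 higher and 2 lower (all genes 9.16% and 7.23%). These 4 comparisons share the E12.5_GC libraries. The pre-granulosa marker sum was 456 to 483 FPKM in E12.5_GC and between 22.1 and 44.1 over the V580 days, that of interstitial markers 230 to 248 in E12.5_GC and 1300 to 1620 on D10, and that of the 2 erythroid markers measured (of 5 chosen) 982 to 4110 in E12.5_GC and at most 0.739 in V580 cells. The part of these cells in the differences was not tested.

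Wnt6 was the most abundant member of E12.5_GC, at 152, 223 and 138 FPKM. It stood at 45.5, 45.7 and 41.7 on D4, 74.0, 72.0 and 71.2 on D6, 32.5, 27.5 and 28.7 on D8 and 18.7, 13.6 and 17.4 on D10. No V580 library reached the lowest E12.5_GC value, and among V580 cells D6 was highest. The log2 difference from E12.5_GC was -1.20 ± 0.15 on D6 (adjusted p = 4.18e-06) and -3.27 ± 0.15 on D10 (adjusted p = 4.53e-11). Without E12.5_GC replicate 2, the D6 difference was -0.99 and under 2-fold. Wnt5b, at 20.6, 22.4 and 17.6 FPKM in E12.5_GC, was at 3.67, 3.08 and 3.3 on D4 and at 8.05, 7.52 and 7.75 on D10, with its highest V580 values on D8 (11.0, 9.79 and 9.78). It was 1.26 ± 0.08 lower on D10 (log2 difference -1.26, adjusted p = 3.35e-09).

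Wnt2b and Wnt5a started far below E12.5_GC and then rose. Wnt2b was at 23.9, 15.0 and 24.6 FPKM in E12.5_GC, 3.69, 3.5 and 3.8 on D4, 30.4, 36.6 and 31.7 on D6, 31.5, 33.3 and 31.0 on D8 and 28.0, 27.2 and 28.4 on D10. It rose by 2.86 ± 0.13 on the log2 scale from D4 to D6 (adjusted p = 4.56e-10). Wnt5a was at 15.1, 9.81 and 18.0 FPKM in E12.5_GC, 1.66, 1.62 and 1.66 on D4, 7.16, 7.21 and 7.19 on D6, 30.1, 27.7 and 28.5 on D8 and 30.4, 31.5 and 32.2 on D10. The steps of Wnt5a were 1.63 ± 0.14 from D4 to D6 (adjusted p = 2.51e-07) and 1.86 ± 0.14 from D6 to D8 (adjusted p = 1.28e-07), and it passed E12.5_GC by 1.12 ± 0.14 on D10. Wnt7b, a ligand of lung and collecting duct epithelia, was nearly absent from E12.5_GC (0.353, 0.0783 and 0.104 FPKM) and stood at 7.75, 6.35 and 6.86 on D4 and 10.5, 8.87 and 9.54 on D10. Its difference from E12.5_GC was between 2.76 and 3.18 on the log2 scale over the 4 days. Reads of Wnt7b and of AU022754, which overlaps 6.6% of its exon bases on the other strand, cannot be told apart. Epithelial markers summed to 97.7 to 153 FPKM in E12.5_GC and to 635 to 1770 over the V580 days, and their part in the level of Wnt7b was not tested in these libraries.

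**Figure D3:**
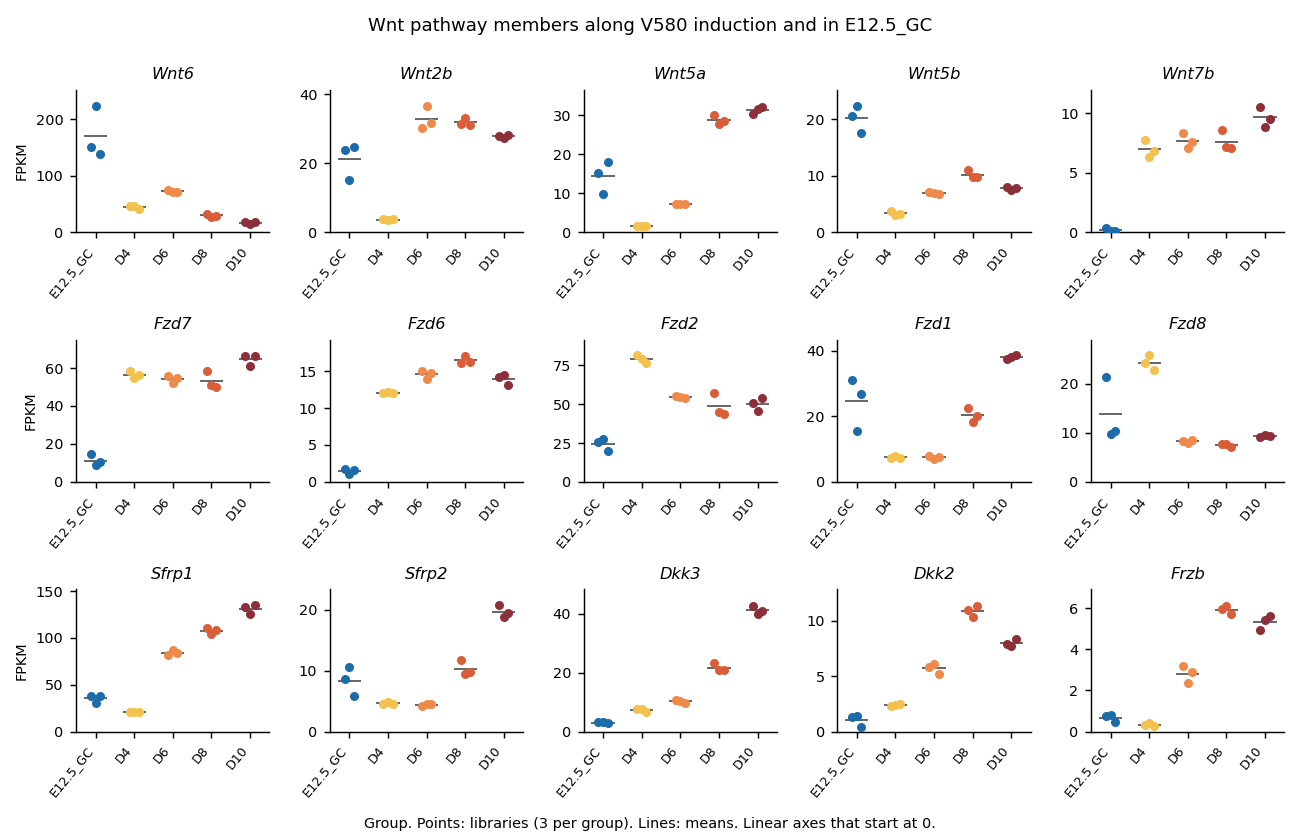
FPKM of 15 members in E12.5_GC and in V580 cells on D4, D6, D8 and D10, with a point per library (3 per group), a line at the mean and linear axes that start at 0. Wnt6 was below E12.5_GC on every day, Sfrp1 and Dkk3 rose through D10 (Dkk3 from 6.58 to 7.73 on D4 to 39.9 to 42.7 on D10), and Wnt7b, Fzd6 and Fzd7 were above E12.5_GC from D4 on.

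Among receptors, Fzd7 and Fzd6 were higher in V580 cells on every day. Fzd7, a main Frizzled of pluripotent stem cells, was at 14.5, 8.64 and 10.2 FPKM in E12.5_GC, 58.6, 54.8 and 56.1 on D4, 55.9, 52.4 and 54.8 on D6, 58.7, 50.8 and 49.9 on D8 and 66.5, 61.1 and 66.4 on D10. Its log2 difference was 2.27 ± 0.13 on D4 (adjusted p = 4.39e-10) and 2.47 ± 0.13 on D10 (adjusted p = 2.27e-10). Fzd6, which acts in planar cell polarity, was between 1.03 and 1.73 FPKM in E12.5_GC and between 11.97 and 17.0 over the V580 days, a difference of 2.42 to 2.84 on the log2 scale. Fzd2 was at 25.7, 27.7 and 19.8 FPKM in E12.5_GC and at 81.7, 79.0 and 76.4 on D4, where it was the most abundant member (1.67 ± 0.12, adjusted p = 5.49e-09). Fzd1, a receptor close to Fzd2 and Fzd7 in sequence, was at 31.1, 15.5 and 26.9 FPKM in E12.5_GC, 7.25, 7.83 and 7.34 on D4, 7.74, 7.02 and 7.6 on D6, 22.5, 18.4 and 20.2 on D8 and 37.6, 38.1 and 38.6 on D10. It was lower on D4 and D6 (-1.54 ± 0.17 on both) and rose by 1.34 ± 0.17 from D6 to D8 (adjusted p = 2.26e-05). Fzd8 fell from 24.2, 25.9 and 22.9 FPKM on D4 to 8.34, 7.97 and 8.44 on D6 (-1.45 ± 0.19, adjusted p = 2.35e-05), and its E12.5_GC values (21.4, 9.67 and 10.4) lay between those of D4 and D6 without overlap.

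Sfrp1 was the most abundant member on D6, D8 and D10. It was at 38.3, 30.8 and 38.5 FPKM in E12.5_GC, 20.9, 20.9 and 21.4 on D4, 81.4, 87.0 and 83.5 on D6, 111, 104 and 109 on D8 and 133, 125 and 135 on D10. The step from D4 to D6 was 1.95 ± 0.08 on the log2 scale (adjusted p = 7.76e-11), and D10 lay 1.85 ± 0.08 above E12.5_GC (adjusted p = 1.98e-11). Dkk3 was higher on each later day, from 3.3, 3.12 and 2.8 FPKM in E12.5_GC to 7.73, 7.65 and 6.58 on D4, 10.6, 10.3 and 9.84 on D6, 23.2, 21.0 and 20.9 on D8 and 42.7, 39.9 and 40.97 on D10. Its difference from E12.5_GC was 3.37 ± 0.07 on D10 (adjusted p = 1.97e-14), the largest on the log2(FPKM + 1) scale of the 24 members tested there. Without the pseudocount the ratio of means was larger for Wnt7b (0.178 to 9.65 FPKM) than for Dkk3 (3.07 to 41.2). Dkk2 was at 1.3, 1.4 and 0.4 FPKM in E12.5_GC, 5.82, 6.09 and 5.18 on D6, 11.0, 10.3 and 11.3 on D8 and 7.93, 7.69 and 8.34 on D10 (2.59 ± 0.15 on D8, adjusted p = 9.53e-10). Frzb was between 0.473 and 0.817 FPKM in E12.5_GC and between 0.258 and 0.425 on D4. It was at 3.17, 2.38 and 2.91 on D6 and 5.95, 6.11 and 5.72 on D8 (1.51 ± 0.09 from D4 to D6, adjusted p = 7.84e-09). Extraembryonic endoderm markers summed to 71.5 to 86.3 FPKM in E12.5_GC, 65.3 to 74.6 on D4, at least 96.8 on D6 and 107 to 118 on D8. The part of that sum in the rise of Frzb was not tested in these libraries. Sfrp2 rose by 1.05 ± 0.14 from D6 (4.2, 4.55 and 4.57 FPKM) to D8 (11.7, 9.39 and 9.79), and stayed under 2-fold without V580_D8 replicate 1 (0.96). Wnt2, a ligand known from lung specification, behaved alike, with 0.389, 0.379 and 0.353 FPKM on D6 and 2.46, 1.78 and 1.61 on D8 (1.09 ± 0.10, and 0.97 without V580_D8 replicate 1).

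Between neighbouring days, 7 of the 24 members were called from D4 to D6 (29.2%, beside 5.08% of all genes), 6 higher and 1 lower (all genes 3.41% and 1.67%). From D6 to D8 it was 6 (25% beside 2.55%), 5 higher and 1 lower (all genes 2.29% and 0.252%). Without V580_D8 replicate 1 the second count was 3. From D8 to D10 limma called 0 of 24 (beside 1.29%). There were 15 at an unadjusted p below 0.05, 12 at an adjusted p below 0.05 without the limit on the fold, and 2 called by edgeR on reads recovered from the FPKM values. Shares of all genes under these last rules are not given here. Of the other pathway genes, 45 were tested, and 10 rose and 0 fell from D4 to D6, 7 of them among the 12 feedback targets tested. Axin2 rose by 1.31 and Lef1 by 1.60 on the log2 scale at that step, and Wnt4 by 3.05. Against E12.5_GC, Lgr5 was lower on every day (-1.84 on D4, -1.25 on D10), Rspo1 also (-3.80 and -2.55), and Porcn was higher on D10 (1.28).

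The next question was which of these genes respond to Vc, AM580 or both in ESCs, beside their drift in untreated cultures. Of the 29 members, 22 passed the filter on low values, which a gene can pass through 1 group alone. Frzb passed only through AM580_48h, and Dkk1 only through AM580_48h and V580_48h. These 2 members were thus tested only because they were high there. Between 24 h and 48 h without either molecule, 6 of the 22 were called (27.3%, beside 7.72% of all genes), 2 higher and 4 lower (all genes 2.52% and 5.2%). Sfrp2 went from 1.11 and 0.966 FPKM to 9.93 and 11.0 (2.49 ± 0.07, adjusted p = 4.69e-13), and Fzd2 from 6.46 and 6.41 to 17.3 and 17.7 (1.32 ± 0.06, adjusted p = 9.73e-11). The ligands Wnt7b, Wnt6 and Wnt5a fell: Wnt7b from 6.65 and 7.07 to 0.852 and 1.28 FPKM (-1.93 ± 0.08), Wnt6 from 6.38 and 6.76 to 1.4 and 1.19 (-1.72 ± 0.10) and Wnt5a from 4.58 and 4.3 to 0.797 and 1.2 (-1.45 ± 0.09). Fzd5, from 6.84 and 5.91 to 2.52 and 2.77 FPKM, fell by 1.02 ± 0.07 and stayed under 2-fold without replicate 1 of Con_24h (-0.92) or of Con_48h (-0.97). Its reads cannot be told apart from those of Gm38058 on the other strand. Pluripotency markers summed to 964 to 1030 FPKM at 24 h and 571 to 582 at 48 h in Con.

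At 24 h limma called 0 of the 22 members in each comparison with Con_24h (beside 0.0846% of all genes for Vc, 0.404% for AM580 and 0.695% for V580). At an unadjusted p below 0.05 there were 7 members for Vc, 7 for AM580 and 10 for V580. By edgeR on recovered reads there were 1, 1 and 3 in that order. Shares of all genes at an unadjusted p or by edgeR are not given here, so that such counts have nothing to be read against. At 48 h limma called 4 members under AM580 (18.2%, beside 3.23% of all genes), 3 higher and 1 lower (all genes 2.33% and 0.902%). It called 2 under V580 (9.09% beside 3.18%), 1 in each direction (all genes 1.84% higher and 1.34% lower), and 0 under Vc (beside 0.047%). Under Vc, 4 had an unadjusted p below 0.05 and edgeR on recovered reads called 0, again without a share of all genes under these rules. The comparisons at each time share the Con libraries. The calls at 48 h depend on the pseudocount. With 5 FPKM added in place of 1, 0 members passed under AM580 and 1 under V580.

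Dkk1 rose with AM580 at 48 h from levels near 0. It stood at 0.0415 and 0.0783 FPKM in Con_48h, 0.0955 and 0.0711 in Vc_48h, 1.41 and 1.5 in AM580_48h and 1.09 and 1.01 in V580_48h, and at most at 0.325 in the 8 libraries of 24 h. The AM580 difference was 1.21 ± 0.08 on the log2 scale (adjusted p = 7.04e-09), and that of V580, 0.95 ± 0.08, fell short of 2-fold. Fzd8, a receptor expressed in the early embryo's anterior, was at 3.14 and 3.73 FPKM in Con_48h, 3.16 and 3.37 in Vc_48h, 8.83 and 8.82 in AM580_48h and 8.55 and 8.47 in V580_48h. It rose by 1.15 ± 0.08 with AM580 (adjusted p = 9.79e-09) and by 1.10 ± 0.08 with V580 (adjusted p = 1.63e-08). Wnt9a was at 0.801 and 0.771 FPKM in Con_48h, 0.64 and 0.605 in Vc_48h, 2.97 and 2.39 in AM580_48h and 2.52 in both libraries of V580_48h. Its difference from Con_48h was 1.04 ± 0.08 with AM580 (adjusted p = 4.51e-08), and 0.98 ± 0.08 with V580. At 24 h the means of Wnt9a were 1.95 FPKM in Con, 3.14 with AM580 and 2.2 with V580. From 24 h to 48 h Wnt9a thus went down in Con and with AM580. Without AM580_48h replicate 1 the Wnt9a difference was 0.93, and with quantile normalization 0.97, both under 2-fold. Extraembryonic endoderm markers summed to 3.54 to 3.93 FPKM in Con_48h, 19.5 to 19.8 in AM580_48h and 9.79 to 11.8 in V580_48h, and their part in these differences was not tested.

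Fzd7 and Sfrp1 were lower than in Con at 48 h. Fzd7 was at 50.6 and 52.8 FPKM in Con_48h, 52.0 and 49.6 in Vc_48h, 24.6 and 23.6 in AM580_48h and 26.2 and 25.04 in V580_48h, so that the 4 libraries with AM580 did not overlap the 4 without. The difference was -1.07 ± 0.06 with AM580 (adjusted p = 3.08e-09) and -0.99 ± 0.06 with V580, the latter just under 2-fold. Pluripotency markers summed to 277 to 293 FPKM in AM580_48h and 279 to 283 in V580_48h, and their part in the fall of Fzd7 was not tested. Sfrp1 was at 17.1 and 18.3 FPKM in Con_48h, 17.3 and 16.6 in Vc_48h, 10.9 and 9.69 in AM580_48h and 6.03 and 6.36 in V580_48h. It was lower by 1.38 ± 0.06 with V580 than in Con_48h (adjusted p = 1.49e-10). At 24 h Sfrp1 was lower in both groups that held Vc, at 5.24 and 5.55 FPKM in Vc_24h and 5.29 and 4.92 in V580_24h against 10.9 and 10.1 in Con_24h and 10.2 and 10.0 in AM580_24h, a difference that stayed under 2-fold on the log2(FPKM + 1) scale. Sfrp1 was thus higher at 48 h than at 24 h both in Con and with V580.

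**Figure D4:**
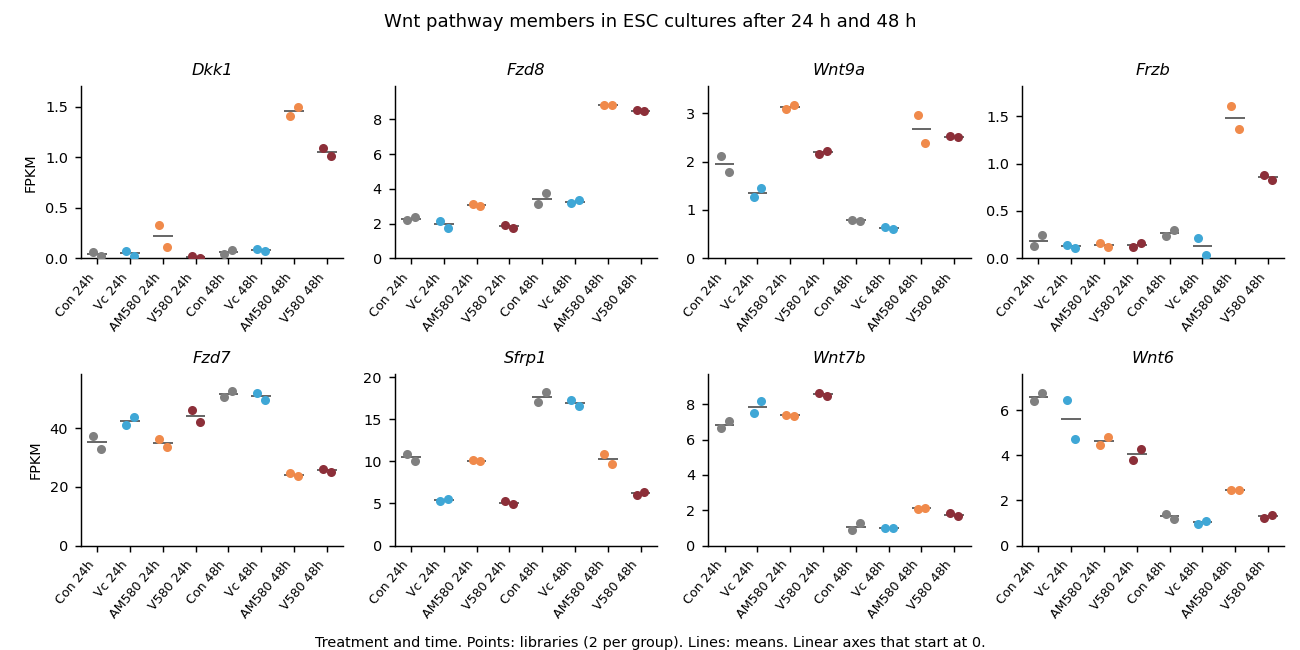
FPKM of 8 members in ESC cultures after 24 h and 48 h without molecules (Con), with Vc, with AM580 and with V580, with a point per library (2 per group), a line at the mean and linear axes that start at 0. At 48 h Dkk1, Fzd8, Wnt9a and Frzb were higher and Fzd7 lower in the AM580 and V580 libraries than in Con and Vc, and Sfrp1 was lowest in V580 (6.03 and 6.36).

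The effects of AM580 and V580 were also compared between the times. The AM580 effect at 48 h minus that at 24 h passed for 3 of 22 members (13.6%, beside 1.9% of all genes), 2 higher and 1 lower (all genes 1.41% and 0.489%). The V580 effect passed for 2 (9.09% beside 1.83%), 1 in each direction (all genes 1.16% higher and 0.667% lower). Fzd7 showed this for both, with -1.06 ± 0.09 for AM580 (adjusted p = 5.96e-07) and -1.31 ± 0.09 for V580 (adjusted p = 6.84e-08), and it was not called at 24 h (36.4 and 33.4 FPKM with AM580, 46.3 and 42.1 with V580, 37.3 and 33.0 in Con). Fzd8 differed for V580 (1.31 ± 0.11, adjusted p = 4.08e-07). Frzb (1.03 ± 0.12) and Wnt6 (1.02 ± 0.14) differed for AM580. Frzb was at 1.6 and 1.37 FPKM in AM580_48h against 0.233 and 0.294 in Con_48h, and Wnt6 at 2.46 in both AM580_48h libraries against 1.4 and 1.19 in Con_48h. Without Con_24h replicate 2, the AM580 differences of Fzd7 (-0.97), Frzb (0.96) and Wnt6 (0.98) were under 2-fold and 1 member passed in place of 3. That of Frzb was also under 2-fold without Con_48h replicate 1 (1.00), and that of Wnt6 without AM580_24h replicate 1 (0.97) or Con_48h replicate 2 (0.96).

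Between V580 and AM580, limma called 0 of 22 members at 24 h (beside 0.0658% of all genes) and 0 at 48 h (beside 0.263%). At an unadjusted p below 0.05 there were 11 at 24 h and 9 at 48 h, and edgeR on recovered reads called 1 and 0. Shares of all genes under these 2 rules are not given here. Of the other pathway genes, 41 were tested. Against Con at 48 h, AM580 cells held more Porcn (2.27 on the log2 scale) and Wls (1.00) and less Lef1 (-1.87), and no other gene of the 41 was called. Under V580 at 48 h Porcn (1.28) was higher, Lef1 (-2.19) lower and 1 further gene lower. At 24 h Porcn was already higher with AM580 (1.36) and V580 (1.02). Under V580 at 24 h 1 feedback target was also higher, and Lef1 was lower (-1.42). Porcn itself fell between the times, in Con from 6.41 and 6.72 FPKM to 0.52 and 0.633. With AM580 it fell from 18.4 in both libraries to 6.47 and 6.74, and with V580 from 13.8 and 14.8 to 2.73 and 2.9.

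The single-cell sample gave the members' UMIs, counts of single RNA molecules, by V580_D6 cell. It held 15412 barcodes, of which 15315 were kept, with a median of 9281 UMIs. As 1 sample it gives no test between groups. The members and Wnt4 were left out of the genes used for clustering, so that their levels over the 12 clusters are descriptions of genes that did not define them. All 43 members had at least 1 UMI, and 31 had a UMI in at least 1% of cells. Sfrp1 led with 57046 UMIs in 60.64% of cells (350.31 CPM, here UMIs scaled to a common total), followed by Fzd2 (16625 UMIs), Rspo3 (13459) and Wnt6 (10569). Rspo3, which the FPKM table does not hold, had a UMI in 27.15% of cells. Free RNA can give UMIs in cells that do not express a gene, and its level was not measured here, so that shares are set beside that of cluster 6, the deepest. Wnt3a (2 UMIs), Dkk4 (4), Wnt8b (10), Sfrp4 (11), Wnt10b (23), Wnt16 (27) and Rspo2 (32) were the rarest, and Wnt8a had 111 UMIs in 39 cells.

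A member was called uneven where 1 cluster with at least 20 UMIs of it had at least 4 times the CPM of all other cells. This held for 11 members. Of these, 6 were ligands whose level was highest in cluster 5, an epithelial-like cluster of 1048 cells, among clusters with that many UMIs. Epcam, Cdh1, Krt8, Krt18 and Cldn4 were all high there, which means at least 20 CPM and at least 2 times the other cells. Wnt6 was at 289.0 CPM there (exact 95% interval 281.42 to 296.73, counting error only), 8.22 times the level of the other cells, and 5514 of its 10569 UMIs came from these cells. It had a UMI in 76.91% of cluster 5 cells at a median depth of 16073 UMIs, in 12.6% of cluster 6 cells at 23211 UMIs and in 30.86% of mesothelial-like cluster 1 cells at 12135 UMIs. Wnt7b was at 24.2 CPM in cluster 5 (8.33 times) and at 21.3 in the unnamed cluster 8, which also had all 5 epithelial markers high. Wnt10a, the neighbour of Wnt6 on chromosome 1, was at 22.1 CPM (20.65 times), and Wnt3 at 15.99 (10.45 times). Wnt7a was at 12.1 CPM (9.78 times), and Wnt9b, the neighbour of Wnt3 on chromosome 11, at 1.9 (20.87 times, from 36 UMIs in 19 cells).

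Other members peaked elsewhere. Dkk1 and Frzb were highest in clusters 9 and 6, both extraembryonic endoderm-like (Sox17, Foxa2, Lama1, Dab2 and Cubn high, but not Gata6). Frzb was at 48.8 CPM in cluster 9 (35.3 to 65.7) and 48.3 in cluster 6 (45.5 to 51.2), where 58.45% of cells had a UMI (1.56% in cluster 1), against 1.27 in cluster 1 and 1.89 in cluster 3. Dkk1 was at 24.96 CPM in cluster 9 (15.6 to 37.8) and 18.5 in cluster 6 (16.8 to 20.3), and at 4.37 or less in clusters 1, 3 and 5. The unnamed cluster 7, with 3 of the 6 extraembryonic endoderm markers high, held both (Frzb 22.7 and Dkk1 14.3 CPM). Fzd1 peaked in the interstitial-like cluster 3 (17.6 CPM, 4.69 times), as did Wnt5a (111 CPM, with a UMI in 69.16% of its cells against 14.03% in cluster 6). Fzd3, a receptor of axon guidance, peaked in the neuron-like cluster 10 of 66 cells, which also had 3 of 4 mesonephros markers high (194 CPM, 7.3 times). Wnt1 had 39 of its 51 UMIs in 8 cells of the cycling cluster 2. Sfrp1 was broad, between 469.9 and 559.81 CPM in clusters 1, 2, 3 and 4 and between 45.7 and 77.2 in clusters 6, 7, 8 and 9. Rspo3 was highest in the unnamed cluster 4 (166 CPM), with 128 CPM in cluster 1, 126 in cluster 2 and 11.2 in cluster 6, and 47.27% of cluster 1 cells and 12.27% of cluster 6 cells had a UMI. Cluster 4 was led by mitochondrial genes, with a median of 15.9% mitochondrial counts against 1.4 to 5.1% in the other clusters, and the part of this in its levels was not tested.

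**Figure D5:**
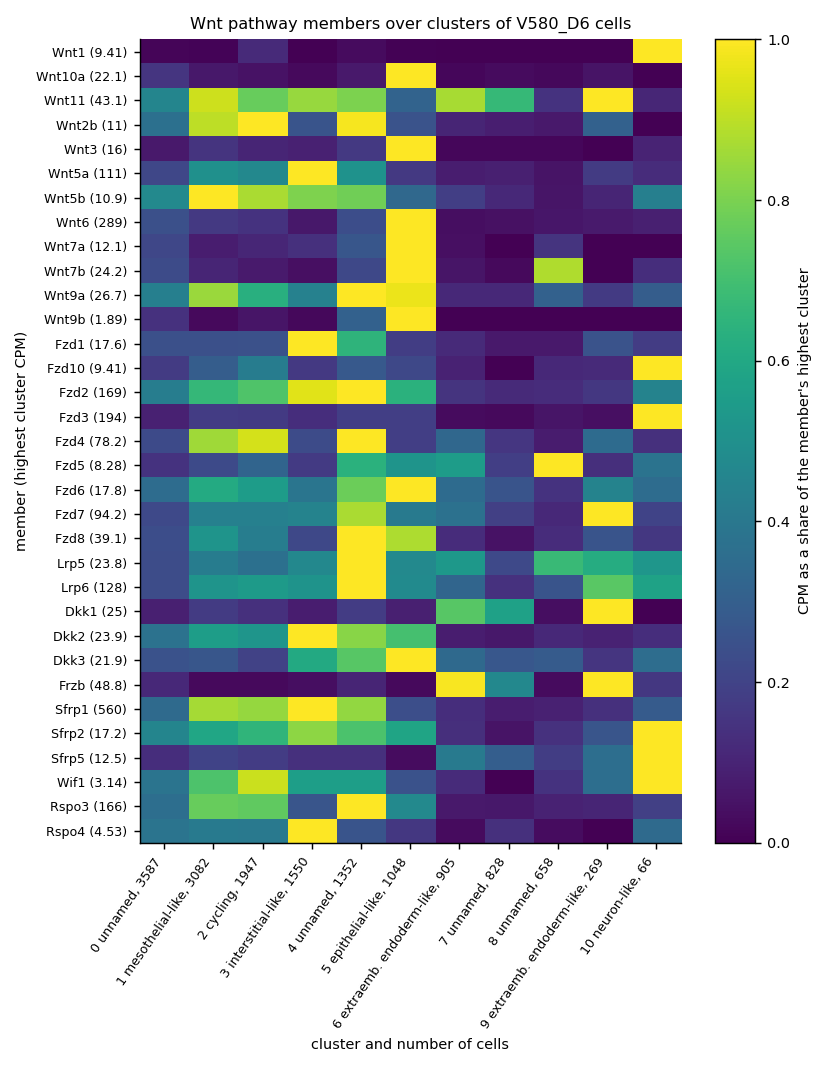
Level of 33 members (rows, with the CPM of the highest cluster in brackets) over the clusters of V580_D6 cells with at least 50 cells (columns, with the number of cells), as a share of each member's highest cluster on a linear colour scale from 0 to 1. Wnt10a, Wnt3, Wnt6, Wnt7a, Wnt7b and Wnt9b were highest in cluster 5 (289 CPM for Wnt6), and Dkk1 and Frzb in clusters 6 and 9 (48.8 CPM for Frzb in cluster 9).

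Clusters 0, 4, 7, 8 and 9 had median depths of 1450 to 3039 UMIs, against 9749 to 23211 in clusters 1, 2, 3, 5, 6 and 10, so that levels in them rest on fewer UMIs. No cluster had 3 of the 6 pre-granulosa markers high, and the cluster names rest on markers and not on deposited annotation. In the mesothelial-like cluster 1, Upk3b, Upk1b and Lrrn4 were high, but Msln and Lhx9 were not. In the interstitial-like cluster 3, Col1a1, Col1a2, Col3a1, Tcf21 and Bgn were high, but Pdgfra was not. The set of 11 uneven members was the same when the members were allowed into the clustering. At a finer resolution Rspo4 joined and Fzd1 left, and with at most 10% mitochondrial counts or at least 1000 UMIs per cell Rspo4 joined. Doublets were not removed, because Scrublet marked 0% of the cells and so did not work here.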

How the data were processed

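RNA-seq counts, FPKM values and 10x UMI counts were used as the authors deposited them. The submitters' notes name Trim Galore, FastQC, HISAT2, SAMtools, featureCounts, RSEM and mm10, and the libraries do not mark strand. The authors' counts per gene were tested with edgeR 4.0.16 (quasi-likelihood, TMM, filterByExpr, 8 libraries). CPM is scaled to the TMM-adjusted library size. The authors' FPKM values, normalised for depth and length, were tested as log2(FPKM + 1) with limma 3.58.1 (trend), over genes at 1 FPKM or more in at least 3 of the 15 libraries of the days or 2 of the 16 of the treatments. Whole reads were recovered from the FPKM values of 13381 genes (97.8%). A gene was accepted where its values lay within 0.05 reads of whole numbers, so that this closeness is no check of the recovery. All p values were Benjamini-Hochberg adjusted over all genes tested. Simulated data were used to test edgeR for P6w against E12.5, and limma for V580_D6 against E12.5_GC and AM580_48h against Con_48h. The other comparisons, the differences of effects and the alternative fits were not simulated. Deviations of same-numbered libraries from their group means correlated above 0.1 in all 3 pairs of E12.5_GC and V580_D4 (0.115, 0.295 and 0.344). These groups were singled out after the values were seen. Differently numbered libraries were not compared, and the labels give no pairing. DESeq2 1.42.0 and edgeR on recovered reads were alternatives. The single-cell sample, UMI counts as deposited, was clustered with scanpy 1.11.5 and leidenalg 0.10.2 after removal of 97 barcodes with over 40% mitochondrial counts. Cluster levels carry exact Poisson 95% intervals. Named with full values are, per comparison, up to 4 called members with the largest rises and 4 with the largest falls, their higher group mean being 1 or more (CPM or FPKM). Members and lists were chosen with earlier results of these data known. Not used were 10 columns that match no sample, a table of the authors' own comparisons and 8 germ cell samples.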

Additional observations from a re-analysis of the deposited data

Results flagged for a closer look

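The effect of AM580 or V580 against Con differed between 24 h and 48 h for 4 members, by limma's test of the difference itself. For AM580 the effect at 48 h minus that at 24 h, on the log2(FPKM + 1) scale, was 1.03 for Frzb (adjusted p = 1.23e-05), -1.06 for Fzd7 (adjusted p = 5.96e-07) and 1.02 for Wnt6 (adjusted p = 7.61e-05). For V580 it was -1.31 for Fzd7 (adjusted p = 6.84e-08) and 1.31 for Fzd8 (adjusted p = 4.08e-07).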

How the results depend on the processing

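Of 290 alternative values of the 23 counts of members, 48 moved by more than 1.5 times the reported count. Of 1110 alternative values of the 85 named fold changes, 1051 kept direction and call, 59 lost the call and 0 changed direction. With at least 2-fold required, 9 members were called at E13.5. Without the limit on the fold, limma called 21 on D6 and 20 on D8 against E12.5_GC, 16 from D4 to D6, 13 from D6 to D8 and 12 from D8 to D10. At 24 h it then called 4 for Vc, 4 for AM580, 9 for V580 and 7 for V580 against AM580. At 48 h it called 2 for Vc, 14 for AM580, 14 for V580 and 6 for V580 against AM580. It called 18 between the Con times, and 14 (AM580) and 13 (V580) for the change of effect. With a pseudocount of 5, 8 were called on D10, 3 from D4 to D6, 3 from D6 to D8, 0 for AM580 and 1 for V580 at 48 h, 1 between the Con times, and 0 (AM580) and 1 (V580) for the change of effect. With 0.1 it was 1 each for Vc, AM580, V580 and V580 against AM580 at 24 h, 6 for V580 at 48 h, 12 between the Con times, and 5 and 6 for the change of effect. By edgeR on recovered reads, chosen after seeing the data, it was 17 on D8, 11 from D4 to D6, 2 from D8 to D10, 1, 1 and 3 for Vc, AM580 and V580 at 24 h, 9 for AM580 and 7 for V580 at 48 h, 1 for V580 against AM580 at 24 h, 15 between the Con times, and 7 and 6 for the change of effect. The cause of these changes was not tested, beyond the looser or stricter rule itself. A looser rule calls more of all genes as well. The share of all genes called under each alternative setting, here and below, is not given, so that these counts alone show no response particular to the members.

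With each library left out in turn, the counts ran from 9 to 12 (E13.5), 10 to 13 (E16.5), 20 to 22 (P6w against E12.5) and 15 to 18 (P6w against E16.5). Against E12.5_GC they ran from 9 to 12 (D4), 13 to 14 (D6), 11 to 13 (D8) and 14 to 16 (D10), from D4 to D6 from 7 to 8 and from D6 to D8 from 3 to 6. For AM580 and V580 at 48 h they ran from 3 to 5 and 2 to 3, between the Con times from 5 to 7, and for the change of effect from 1 to 3 and 2 to 3. A lone library left in a group was assumed to vary like the others.

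Same-numbered libraries did not deviate together as a rule, with correlations of -0.069 to 0.121 (stages), -0.431 to 0.386 (days) and -0.427 to 0.211 (treatments), and no source used here says that a number marks a shared batch. For V580_D4 against E12.5_GC, where all 3 pairs correlated, the count with the replicate block was 12, as without it. With the replicate block the counts were 14 (E13.5), 12 (E16.5), 23 for P6w against E12.5 and 19 against E16.5, and Wnt5b at E13.5 lost its call (0.40). The counts of the days and treatments did not move with the block.

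Depth limits the members with few counts, such as Wnt10b, Dkk1 and Wif1, whose ratios have wide intervals. The lane and the stage overlap, and with the lane as a term 18, 12, 17 and 17 members were called in the order of the stage comparisons. The calls of Dkk1 (-1.30) and Dkk2 (-3.63) at P6w and of Dkk2 at E16.5 (-1.64) were then lost.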

Other observations

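The single-cell sample is the only view here of the members outside the FPKM table in induced cells. Rspo3 and Wnt10a are described above. Sfrp5 had 403 UMIs (2.06% of cells) and stood at 5.17 CPM in the extraembryonic endoderm-like cluster 6. Rspo4 had 284 UMIs and stood at 4.53 CPM in the interstitial-like cluster 3 and at 1.85 in the mesothelial-like cluster 1. Fzd10 (380 UMIs) and Wif1 (278 UMIs) were at 3.94 and 2.89 CPM in the cycling cluster 2. Of 111 UMIs of Wnt8a, 26 came from 3 cells of cluster 3.

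Some members lie beside each other in the genome (mm10). Wnt6 and Wnt10a are 6.19 kb apart on chromosome 1, Wnt3a and Wnt9a 16.2 kb on chromosome 11, Wnt9b and Wnt3 24.3 kb on chromosome 11, and Wnt10b and Wnt1 11.7 kb on chromosome 15. Wnt6, Wnt10a, Wnt9b and Wnt3 were all highest in cluster 5 among clusters of at least 50 cells. Wnt9a had 2586 UMIs while Wnt3a had 2.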
